A study of Mus musculus with 8 samples.

Results

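The Nat8 acetyltransferase family of the mouse was described in single-nucleus RNA-seq data of the kidney. Its members were the genes named Nat8 or Nat8f in the deposited gene tables, which gave 8 of 32285 genes (Nat8, Nat8f1, Nat8f2, Nat8f3, Nat8f4, Nat8f5, Nat8f6 and Nat8f7), all of them among the 21286 mRNAs. They were chosen by their measured levels per cell class, genotype and time in these same libraries. Those levels, their fold changes and their calls are therefore a description, and nothing rests on a test of them.

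Nat8 encodes the cysteine S-conjugate N-acetyltransferase, an enzyme of the endoplasmic reticulum membrane. It acetylates the cysteine conjugate that remains of a glutathione conjugate, the last step by which the proximal tubule makes mercapturic acids from reactive and foreign compounds for excretion in urine. The Nat8f genes, formerly called camello-like genes, are tandem copies of the same gene family, which belongs to the GNAT class of enzymes that move an acetyl group from acetyl-CoA to an amino group.

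The 8 libraries were prepared from the kidneys of 8 male mice, with 2 mice in each of 4 groups. Ctrl mice were Bmal1 lox/lox, and cKOt mice were Bmal1 lox/lox with Pax8-rtTA and LC-1, transgenes by which doxycycline turns on Cre in renal tubules, so that endothelial, stromal and immune nuclei of a cKOt kidney are outside the cells targeted. Both genotypes had received doxycycline at 2 mg/ml for 2 weeks from 8 weeks of age, were of C57BL/6J background and were killed at 14 weeks under 12 h of light per day. Kidneys were taken at ZT4, 4 h into the light phase, or at ZT16, which falls in the dark phase when mice are active. The comparisons ask whether levels in the tubule depend on the time of day and on the clock gene Bmal1, listed in the files as Arntl. Each library held 36548873 to 54500820 UMIs, with a median of 3003.5 to 4830 UMIs per nucleus, and 81391 of 82784 barcodes passed the filters. Arntl stood at 38.4 and 33.1 CPM over all nuclei of the Ctrl libraries at ZT4 and at 154 and 159 in Ctrl at ZT16. In cKOt it was at 296 and 201 at ZT4 and at 296 and 266 at ZT16. CPM are counts scaled to the UMIs of the mRNAs that passed the count filter, with edgeR's TMM factors. These counts cover the whole gene and not the deleted part, so they do not check the genotype labels.

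Nuclei were clustered with the 8 members left out, and 79020 of them were named as 19 classes from marker genes. The proximal convoluted tubule (PCT) held 22244 nuclei and was the sum of clusters with high Slc34a1 (phosphate transporter), Slc5a12 (lactate transporter) or Slc7a13 (late proximal amino acid transporter). The proximal straight tubule (PST) held 3879 nuclei with high Cyp7b1 and Slc7a13, in the clusters where genes of the last proximal segment scored highest among all proximal clusters. Of the 10 PCT clusters, 5 with 13175 nuclei were rich in Slc5a12 and scored best on the PCT marker list, and 5 with 9069 nuclei were rich in Slc7a13 and scored best on the PST list. Values for PCT as a whole therefore join 2 parts, and the order against PST is given for each part as well. Several clusters of PCT, and both of PST, came mostly from 1 genotype. In PCT, 3455 of 3533 nuclei of the largest cluster and 3087 of 3453 of the next were from cKOt, whereas 2461 of 2502 nuclei of another (2399 of them at ZT4) and 2192 of 2217 of a further one were from Ctrl. In PST, 1 of the 2 clusters had 2025 of 2191 nuclei from cKOt and the other had 1646 of 1688 from Ctrl. Smaller PCT clusters came mostly from 1 library, with 1017 of 1077 nuclei from Ctrl ZT4 replicate 2, 1066 of 1163 from Ctrl ZT16 replicate 1 and 1049 of 1079 from cKOt ZT4 replicate 2. The genotype comparisons within PCT and PST thus set side by side nuclei that in part sit in different clusters, and the part this has in the results was not tested. Any 2 libraries shared 18 to 42 cell barcodes.

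All 8 members lie on chromosome 6 in 1 cluster of 209.2 kb, chr6:85706707-85915914 in the RefSeq annotation of GRCm38.p6, and all are on the minus strand. From low to high coordinates their order is Nat8f7, Nat8f3, Nat8f6, Nat8f5, Nat8, Nat8f2, Nat8f4 and Nat8f1. The Ensembl identifiers in the files matched those of RefSeq for all 8, among them ENSMUSG00000030004 for Nat8 and ENSMUSG00000051262 for Nat8f3. Nat8f3, Nat8f6 and Nat8f7 have been listed under 1 older symbol, Cml3, and their transcripts are near-copies: of all windows of 90 bases, 46.9% of those of Nat8f3, 57.1% of those of Nat8f6 and 70.8% of those of Nat8f7 occur letter for letter in another member. In the last 500 bases, where a 3′ assay reads, these shares were 51.1%, 62.0% and 78.1%, so counts of these 3 genes are uncertain. The other 5 members shared 0 to 6.57% of their windows there. The GENCODE annotation of GRCm39 differs from RefSeq here. In it Nat8f5 lies wholly inside Nat8f6 on the same strand, whereas the RefSeq genes are apart, so the split of counts between Nat8f5 and Nat8f6 is uncertain too. In GENCODE 61% of Nat8f1 overlaps Tprkb and 72.1% of Nat8f3 overlaps the pseudogene Alms1-ps1, both on the opposite strand. Use of introns or of strand in the authors' counting is not stated in what was read for this work.

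The promoters are shown because members share stretches in front of their start sites. The listed RefSeq start sites of Nat8f7, Nat8f3, Nat8f4 and Nat8f1, and the second of Nat8, lie inside the outer bounds of their genes. In the 250 bases before each RefSeq start (GRCm38.p6, minus strand, written 5′ to 3′), the longest stretch that at least 4 members share with at most 1 varying position is TCNCTTCCAGGTT, and the next that does not overlap it is TGGTTTATNATT. Capitals mark both stretches and CCAAT in Nat8f7 (chr6:85708562-85708811), Nat8f6 (chr6:85809878-85810127), Nat8f5 (chr6:85820973-85821222) and Nat8f2 (chr6:85869138-85869387).
Nat8f7: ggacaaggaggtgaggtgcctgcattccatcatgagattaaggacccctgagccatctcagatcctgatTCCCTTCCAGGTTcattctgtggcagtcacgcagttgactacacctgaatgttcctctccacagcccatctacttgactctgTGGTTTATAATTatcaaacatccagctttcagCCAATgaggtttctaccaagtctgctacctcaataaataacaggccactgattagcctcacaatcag
Nat8f6: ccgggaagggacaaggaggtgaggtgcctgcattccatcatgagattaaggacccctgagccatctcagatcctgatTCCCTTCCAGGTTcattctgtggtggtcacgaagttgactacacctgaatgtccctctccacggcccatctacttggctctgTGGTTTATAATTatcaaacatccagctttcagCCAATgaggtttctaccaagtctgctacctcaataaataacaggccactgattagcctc
Nat8f5: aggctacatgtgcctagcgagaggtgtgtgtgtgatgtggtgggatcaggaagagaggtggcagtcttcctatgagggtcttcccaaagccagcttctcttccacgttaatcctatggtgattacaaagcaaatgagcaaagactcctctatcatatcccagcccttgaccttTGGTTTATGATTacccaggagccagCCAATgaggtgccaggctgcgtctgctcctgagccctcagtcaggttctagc
Nat8f2: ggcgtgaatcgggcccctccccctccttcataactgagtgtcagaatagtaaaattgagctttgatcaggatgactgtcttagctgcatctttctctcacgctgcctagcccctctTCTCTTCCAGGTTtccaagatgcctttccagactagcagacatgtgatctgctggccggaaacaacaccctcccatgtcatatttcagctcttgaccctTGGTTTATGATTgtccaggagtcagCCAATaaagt
TGGTTTATNATT begins at position −99 in Nat8f7, −91 in Nat8f6, −77 in Nat8f5 and −35 in Nat8f2, counted back from the start site, and in all 4 a CCAAT follows it, at −67, −59, −52 and −10. TCNCTTCCAGGTT is in Nat8f7, Nat8f6, Nat8f2 and the second listed promoter of Nat8. In the listed promoters of the mouse, each of 300 bases with 250 before and 50 after the start and read on both strands, TGGTTTATNATT was found in 12 of 32851 (0.0365%), TCNCTTCCAGGTT in 14 (0.0426%) and CCAAT in 37.4%. The stretches were found in these promoters themselves, so their shares are no test. Over the 300 bases, the promoters of Nat8f7 and Nat8f6 were identical at 286 of 292 aligned bases, or 97.9%, and those of Nat8f5 and Nat8f2 at 46.5% of 258 aligned bases.

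A second pair is Nat8 (chr6:85836858-85837107, the first of 2 listed start sites) and Nat8f3 (chr6:85765745-85765994), in which capitals mark the bases that are identical in the 156 bases that align.
Nat8: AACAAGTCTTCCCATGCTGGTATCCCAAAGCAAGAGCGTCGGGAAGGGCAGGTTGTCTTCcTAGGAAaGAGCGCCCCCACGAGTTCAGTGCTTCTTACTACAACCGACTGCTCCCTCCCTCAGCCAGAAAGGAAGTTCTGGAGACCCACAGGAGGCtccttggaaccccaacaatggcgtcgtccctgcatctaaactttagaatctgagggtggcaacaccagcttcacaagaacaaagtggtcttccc
Nat8f3: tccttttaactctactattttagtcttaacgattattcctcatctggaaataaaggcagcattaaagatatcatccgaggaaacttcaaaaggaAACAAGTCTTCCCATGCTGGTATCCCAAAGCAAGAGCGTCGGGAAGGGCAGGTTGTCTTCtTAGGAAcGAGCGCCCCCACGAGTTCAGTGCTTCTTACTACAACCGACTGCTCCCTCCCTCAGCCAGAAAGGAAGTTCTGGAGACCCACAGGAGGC
Of these 156 bases 154 were identical, and the shared part lies against the start site in Nat8f3 and farther upstream in Nat8. The E-box CACGTG, the motif bound by the BMAL1 complex, was in none of the 10 listed member promoters on either strand and in 7.15% of all promoters. The form CACGTT was found in Nat8f5 and in 4.68% of all promoters, and the D-box TTATGTAA in none of the member promoters and in 0.938% of all. AGGTCA, the core letters of nuclear receptor sites, was found in promoters of Nat8f5 and Nat8f4 and in 16.3% of all. A match is a description of the letters, and the absence of one says only that they are not in this window.

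Across cell classes, the mean level of 7 of the 8 members was highest in PCT taken as a whole, and that of Nat8f4 was highest there apart from the macula densa (MD), in which 1 UMI set the level. For Nat8 and Nat8f6 this order rested on the Slc7a13-rich clusters, since the Slc5a12-rich part was below PST in 8 of 8 libraries for both. Levels are CPM scaled by edgeR's TMM factors, as mean ± SD over 8 libraries, and were not compared between genes because a 3′ assay counts each gene with its own efficiency. Nat8f6 stood at 158 ± 60.5 CPM in PCT and 103 ± 45.0 in PST. In the other classes its means ran from 2.49 in podocytes (Podo) to 14.1 in myeloid cells (Myel). PST and PCT were thus the classes in which Nat8f6 was high, and 90.38% of its UMIs were in PCT and PST, where 46.52% of all mRNA UMIs were.

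Nat8f3 was at 92.0 ± 63.3 CPM in PCT, 45.0 ± 24.1 in the class named for mesangial cells and pericytes (Mes/Per) and 18.6 ± 6.60 in PST. It was at 6.13 or less in every other class. Most of its Mes/Per UMIs came from the largest cluster of that class, described below. PCT was above Mes/Per in 6 of 8 libraries. Nat8f7 gave only 173 UMIs in PCT (1.54 ± 1.23 CPM) and 32 in Mes/Per (1.45 ± 0.810 CPM), and PCT was the higher in 3 of 8 libraries, so its order between these classes is not set apart from the spread. Its level in PST was 0.533 CPM, from 13 UMIs.

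Nat8, the enzyme of mercapturate formation, was at 54.1 ± 18.8 CPM in PCT. Its mean was 36.6 ± 10.0 in PST, 36.9 ± 13.7 in medullary collecting duct (MCD), 34.0 ± 15.3 in cortical collecting duct (CCD) and 11.5 in Podo, the lowest class. It was 47.5 ± 30.9 in MD, from 23 UMIs, and 40.6 ± 23.2 in SMC/JGC (vascular smooth muscle and juxtaglomerular cells). Nat8 was higher in PCT as a whole than in CCD and MCD in 7 of 8 libraries and than in MD and SMC/JGC in 6. Against PST, the Slc7a13-rich part of PCT was higher in 8 of 8 libraries, and the Slc5a12-rich part, at 12.1 to 34.6 CPM, in 0 of 8. Nat8f1 was at 103 ± 38.6 CPM in PCT, 44.4 ± 19.2 in CCD and 41.8 ± 11.7 in PST, and its lowest class, DCT2, was still at 21.9. UMIs of both genes were thus counted in all classes, with 65.66% of the UMIs of Nat8 and 69.49% of those of Nat8f1 in PCT and PST.

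Nat8f2 was at 5.83 ± 2.17 CPM in PCT, and the next class, Myel, was at 1.85 from 6 UMIs. It was at 0.244 CPM in PST, from 7 UMIs, below PCT in 8 of 8 libraries. Nat8f5 was at 10.2 ± 9.07 CPM in PCT and 2.34 ± 1.33 in PST, with 7.64 in MD from 4 UMIs and 6.44 in SMC/JGC from 8 UMIs. Nat8f4 was at 3.90 ± 1.63 CPM in PCT and at 1.85 in PST, with 2.21 in Podo from 4 UMIs and 2.14 in DCT1. For these 3 genes the order of the classes below PCT rests on few UMIs.

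**Figure D1:**
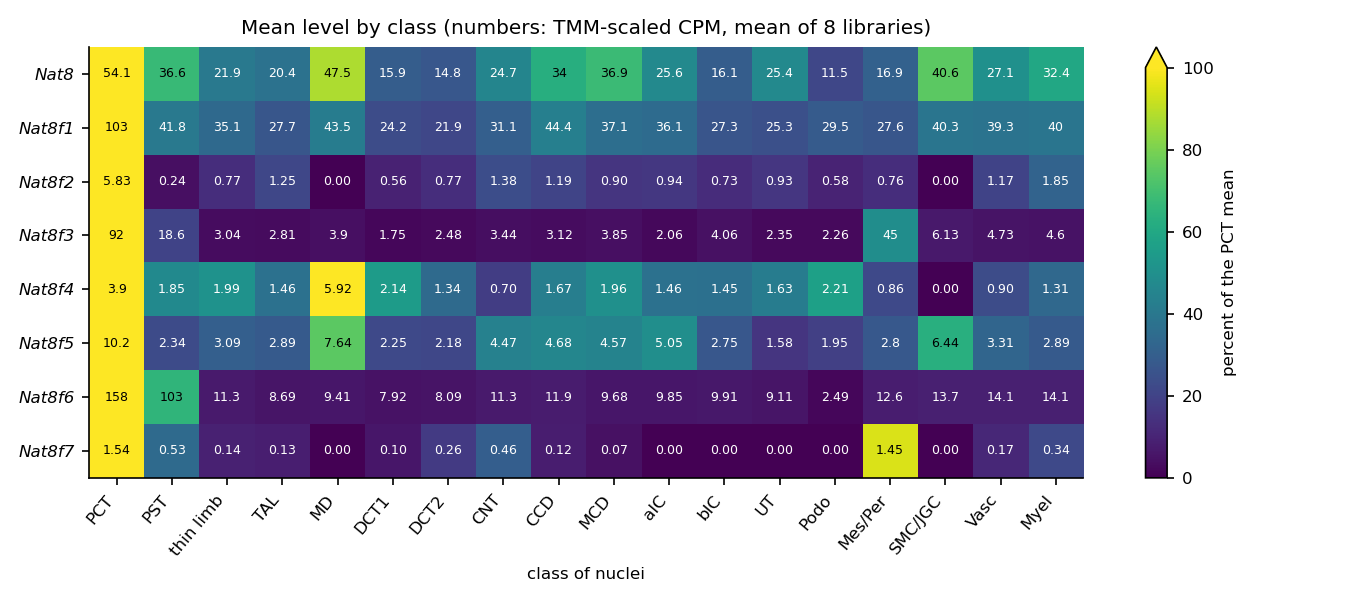
Mean level of each member (rows) in each class of nuclei (columns). Colour gives the level as a percentage of the same gene's PCT mean, and the printed numbers are TMM-scaled CPM, mean of 8 libraries (adipocytes are not drawn). Nat8f6 fades outside PCT and PST (at most 14.1), Nat8f3 has a second class in Mes/Per (45.0), and Nat8 and Nat8f1 have counts in all classes.

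A nucleus with at least 1 UMI of any member was found in 45.0% to 82.2% of PCT nuclei, with a median of 67.7% over libraries. The median was 60.5% in PST. Outside the proximal tubule it was 17.7% in the thick ascending limb (TAL), 16.0% in vascular cells (Vasc) and 14.8% in Podo. Other classes outside it were higher, with 27.9% in MD, 26.5% in CCD and 25.1% in MCD. Nuclei differ in depth, with a median of 4378 to 6882 UMIs in PCT, 5358 to 9426 in PST, 2972 to 4881 in TAL and 1705 to 2583 in Vasc. Thinned to 1000 UMIs per nucleus, the shares were 24.7% in PCT, 15.6% in PST, 4.78% in TAL, 7.82% in Vasc and 3.68% in Podo. They were 9.65% in MD, 8.80% in Mes/Per and 8.73% in SMC/JGC. Of single members, Nat8f6 was seen in a median of 37.2% of PCT, 36.3% of PST, 2.59% of TAL and 2.57% of Vasc nuclei, and after thinning in 10.2% of PCT, 8.04% of PST, 0.708% of TAL and 1.22% of Vasc. Nat8 was seen in 20.4% of PCT, 6.70% of TAL, 4.79% of Vasc and 3.14% of Podo nuclei, and after thinning in 3.43% of PCT, 1.55% of TAL, 2.175% of Vasc and 0.943% of Podo. At equal depth PCT stayed the highest of these classes for both genes, and the medians of Vasc were above those of TAL. For Nat8 other classes came near PCT after thinning, with 3.16% in PST, 3.03% in MD, 2.94% in Myel, 2.73% in MCD and 2.71% in CCD. Within PCT the thinned median of Nat8 was 6.61% in the Slc7a13-rich and 1.43% in the Slc5a12-rich part, the latter below TAL and Vasc.

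Slc34a1, which marks the proximal tubule, was counted in nuclei of all classes, and the members were set against it. Per 1000 Slc34a1 UMIs, Nat8 gave 8.32 UMIs in PCT, 39.8 in PST and 40.9 to 90.1 in the 16 classes outside the proximal tubule (adipocytes, with 61 nuclei, left out). Nat8f1 gave 15.3 in PCT, 43.1 in PST and 69.2 to 105 in those classes. Both were above their PCT and PST ratios in all 16, though for Nat8 the lowest of them was close to PST. For Nat8f6 the PST ratio was 109, and the PCT ratio of 23.9 lay within the range of the other classes, 9.75 to 32.3 with a median of 26.5, and Slc5a12, another proximal gene, had 378 in PCT, within 290 to 509 in those classes. Free RNA was not measured, and its part in these counts was not tested. Nat8f3 gave 13.4 in PCT, 119 in Mes/Per and 4.91 to 11.6 in the other 15 classes. Nat8f7 gave 0.223 in PCT and 3.63 in Mes/Per, with 1.02 in the next class.

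In PCT at ZT4, all 8 members were lower in cKOt than in Ctrl, and the libraries of the 2 genotypes did not overlap for any of them. With 2 libraries per group such a gap can arise by chance. The share of all mRNAs with such a gap was not counted, here or in later paragraphs. By edgeR's quasi-likelihood test 5 of 8 members (Nat8f1, Nat8f2, Nat8f3, Nat8f6 and Nat8f7) were called at an adjusted p under 0.05, against 0.833% of the 14054 mRNAs tested in either direction and 0.398% called lower. DESeq2 called 6, these 5 and Nat8f5, and 311 mRNAs in all. The median log2 fold change was −1.38 over the members and 0.006 over all mRNAs tested. Since these levels chose the members, nothing is read from the counts. Member calls were lost without any 1 library, all of them without either Ctrl ZT4 library, and all 8 log2 fold changes stayed negative. Such fits leave 1 mouse in a group, and fewer of all mRNAs were called in them as well.

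Nat8f3 was at 181 and 176 CPM in the Ctrl libraries at ZT4 and at 26.1 and 55.6 in cKOt at ZT4. It was at 89.9 and 130 in Ctrl at ZT16 and at 34.2 and 42.6 in cKOt at ZT16. The 4 cKOt libraries were the 4 lowest. The log2 fold change of cKOt against Ctrl was −2.13 ± 0.33 (SE) at ZT4, called, and −1.52 ± 0.32 at ZT16, not called. At ZT4 it was −1.69 without cKOt ZT4 replicate 1 and −2.79 without cKOt ZT4 replicate 2. Nat8f7, its near-copy, was at 3.92 and 2.60 CPM in Ctrl and 0.558 and 0.827 in cKOt at ZT4, and at 1.62 and 1.79 in Ctrl and 0.452 and 0.520 in cKOt at ZT16. These values rest on 7 to 49 UMIs per library, and the log2 fold changes were −2.20 ± 0.38 at ZT4, called, and −1.80 ± 0.42 at ZT16, not called. Since Nat8f7 and Nat8f3 share much of their 3′ sequence, the counts of one cannot be told apart from misplaced reads of the other.

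Nat8f6, the third of the near-copies, was at 195 and 236 CPM in Ctrl and 75.5 and 100 in cKOt at ZT4. At ZT16 it was at 218 and 194 in Ctrl and 143 and 103 in cKOt. Its log2 fold change was −1.29 ± 0.21 at ZT4, called, and −0.74 ± 0.21 at ZT16, not called, and again the 4 cKOt libraries were the lowest. Nat8f2 was at 7.21 and 7.87 CPM in Ctrl and 3.14 and 3.13 in cKOt at ZT4, then at 8.12 and 7.83 in Ctrl and 4.18 and 5.20 in cKOt at ZT16. Its log2 fold change was −1.26 ± 0.23 at ZT4, called, and −0.77 ± 0.22 at ZT16, not called. In Ctrl, Nat8f2 and Nat8f6 stood at close levels at the 2 times, since the groups overlapped for both.

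Nat8f1 was apart between genotypes at ZT4 and overlapped at ZT16. It was at 162 and 137 CPM in Ctrl and 47.9 and 61.1 in cKOt at ZT4, a log2 fold change of −1.46 ± 0.21, called. At ZT16 it was at 92.6 and 126 in Ctrl and 86.6 and 113 in cKOt, with a log2 fold change of −0.13 ± 0.21. The difference between the 2 genotype contrasts was 1.33 ± 0.30 on the log2 scale, larger than for any other member. It was not called by edgeR, which called 0 of 8 members for this difference and 0.035% of all mRNAs tested. At an unadjusted p under 0.05 there was 1 member. The share of all mRNAs at that unadjusted limit was not counted, here or in later paragraphs. DESeq2 called 1 member, Nat8f1, and 39 mRNAs in all.

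Nat8f5 had the largest log2 fold change with time in Ctrl among the 8. It was at 7.04 and 10.6 CPM in Ctrl at ZT4 and at 29.2 and 17.7 in Ctrl at ZT16, 2.66-fold higher at ZT16 (log2 fold change 1.41 ± 0.31). Ctrl ZT16 replicate 1, at 29.2, has 1066 of its 2629 PCT nuclei in a cluster of 1163 nuclei made mostly of that library, with Nat8f5 and Nat8f6 among its 10 leading genes, and without it the log2 fold change was 0.997. In cKOt Nat8f5 was at 3.35 and 2.89 at ZT4 and at 6.50 and 4.38 at ZT16. It was 4.29-fold lower in cKOt than in Ctrl at ZT16 (−2.10 ± 0.32), the member called at that time, and 2.84-fold lower at ZT4 (−1.50 ± 0.34, called by DESeq2 but not by edgeR). The call at ZT16 was lost without any 1 of 6 libraries (both Ctrl ZT4, both Ctrl ZT16 and both cKOt ZT16), with values from −2.43 to −1.69, the last without Ctrl ZT16 replicate 1, and also with the replicate block (−2.10) and with doublets removed (−2.10). Within either part of PCT alone Nat8f5 was not called at ZT16. It was at −2.18 ± 0.37 in the Slc5a12-rich and −1.985 ± 0.35 in the Slc7a13-rich part (edgeR adjusted p = 0.0604 and 0.0597). At ZT16 1 of 8 members was called in PCT against 0.308% of all mRNAs and 0.201% called lower, 7 of 8 had a negative log2 fold change, and their median was −0.76 against 0.013 over all mRNAs.

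Nat8 itself was at 47.9 and 62.5 CPM in Ctrl and 30.7 and 40.2 in cKOt at ZT4, and at 91.2 and 66.1 in Ctrl and 50.5 and 44.3 in cKOt at ZT16. The genotypes did not overlap at either time. Its log2 fold change was −0.64 ± 0.22 at ZT4 and −0.73 ± 0.22 at ZT16, neither called, and the value at ZT4 was the smallest in size of the 8. Nat8f4 was at 6.64 and 6.09 CPM in Ctrl and 3.07 and 3.84 in cKOt at ZT4 (−0.88 ± 0.30, not called). At ZT16 it was at 2.44 and 3.06 in Ctrl and 2.26 and 3.79 in cKOt, which overlapped (0.13 ± 0.32).

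**Figure D2:**
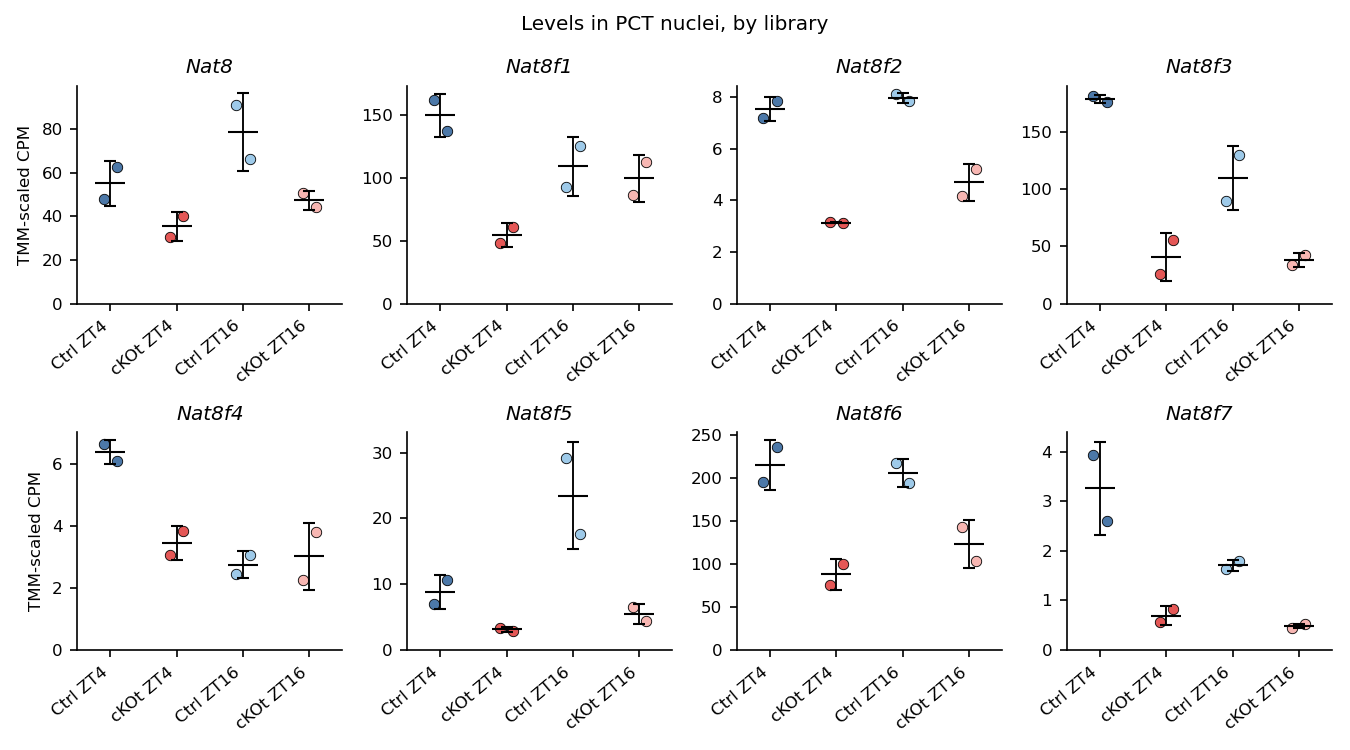
Level of each member in PCT nuclei by group, in TMM-scaled CPM on linear axes. Each point is 1 library, and the black mark and bar are the mean and SD of the 2 libraries of a group. At ZT4 the Ctrl points lie above the cKOt points in all 8 panels, and Nat8f5 is highest in Ctrl at ZT16 (29.2 and 17.7).

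Between times, the members did not move together in Ctrl. Nat8 and Nat8f5 were higher at ZT16 (0.51 ± 0.21 and 1.41 ± 0.31 on the log2 scale), whereas Nat8f1 (−0.46 ± 0.21), Nat8f3 (−0.70 ± 0.32), Nat8f4 (−1.22 ± 0.31) and Nat8f7 (−0.93 ± 0.34) were lower. In each of these the libraries of the 2 times did not overlap. With 2 libraries per group such gaps can arise by chance, and the share of all mRNAs with one was not counted. No member was called by edgeR, against 0.472% of all mRNAs called. At an unadjusted p under 0.05 there were 4 members, a limit at which the share of all mRNAs was not counted. DESeq2 called 1, Nat8f5, and 244 mRNAs in all. In cKOt 5 members were higher at ZT16, Nat8f1 (0.87 ± 0.21), Nat8f5 (0.81 ± 0.35), Nat8f2 (0.57 ± 0.23), Nat8f6 (0.49 ± 0.21) and Nat8 (0.42 ± 0.22). The other 3, Nat8f3, Nat8f4 and Nat8f7, had negative values. edgeR called 0 members there, against 0.00713% of all mRNAs, and 4 were at an unadjusted p under 0.05. DESeq2 called 1, Nat8f1, and 107 mRNAs in all. The 4 contrasts share their libraries in pairs, so they are not independent of each other.

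**Figure D3:**
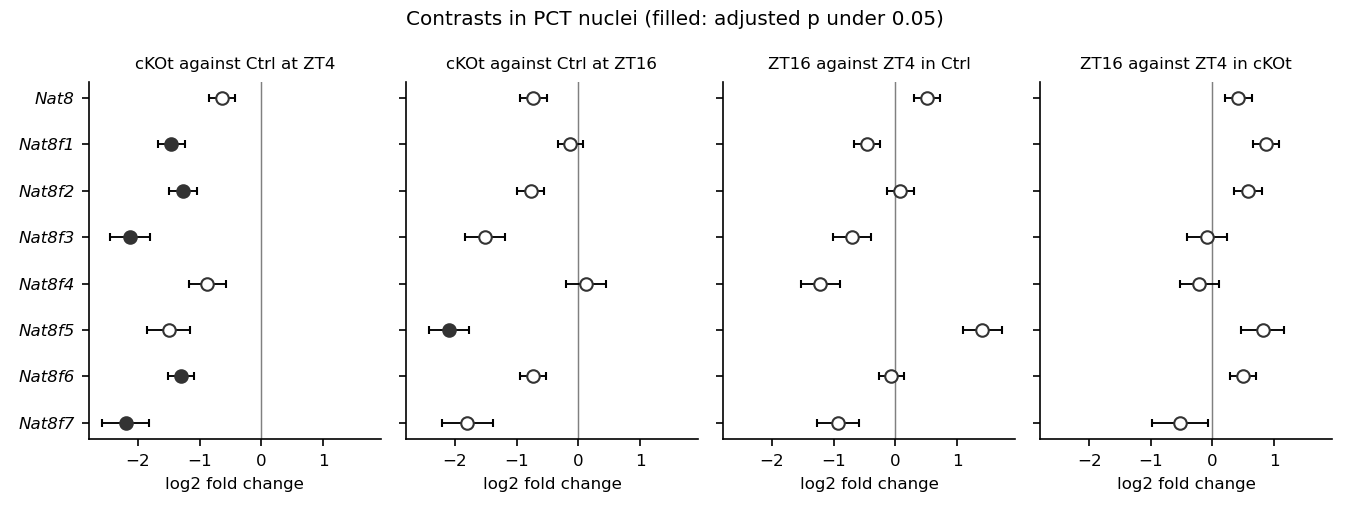
Log2 fold change of each member in PCT in the 4 contrasts, with SE as horizontal bars and a filled point for an adjusted p under 0.05 by edgeR. At ZT4 all 8 points are below 0 and 5 are filled, at ZT16 only Nat8f5 is filled (−2.10), and none is filled for time in Ctrl or in cKOt.

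Summed over all nuclei of a library, 2 members were called at ZT4 (Nat8f1 and Nat8f3), against 0.446% of mRNAs, and 1 at ZT16 (Nat8f5), against 0.174%. At ZT4 0 members were called without Ctrl ZT4 replicate 1, 1 or 2 without any of the other 7 libraries and 1 with the replicate block. The call at ZT16 was lost when any 1 library was left out, and with the replicate block, with doublets removed or with no barcode filter. All 8 log2 fold changes were negative at ZT4 and their median was −1.18. Between times edgeR called 0 of 8 in Ctrl (0.142% of mRNAs) and in cKOt (0% of mRNAs), with 5 and 2 at an unadjusted p under 0.05. DESeq2 called 1 in each, Nat8f5 and Nat8f1, where it called 233 and 164 mRNAs in all. In such sums fewer nuclei of a class and less RNA per nucleus cannot be told apart. The PCT share of nuclei was 22.98% to 29.87% in the Ctrl libraries and 27.17% to 31.98% in the cKOt libraries, so the ranges overlapped, with the higher shares in cKOt.

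Within PCT, clusters were divided by whether Slc5a12 or Slc7a13 was the higher, which gave 13175 Slc5a12-rich and 9069 Slc7a13-rich nuclei. Nat8, Nat8f5 and Nat8f6 were mostly in the Slc7a13-rich part, the side nearer to PST in its markers. Nat8f6 was at 256 ± 79.5 CPM there and 53.6 ± 31.1 in the Slc5a12-rich part, a ratio of 4.77. Nat8 was at 86.6 ± 27.7 against 19.3 ± 6.95 (ratio 4.48), and Nat8f5 at 15.1 ± 13.2 against 4.76 ± 4.31 (ratio 3.16). Each of these was higher in the Slc7a13-rich part in 8 of 8 libraries. Nat8f1 was at 121 ± 42.4 against 83.4 ± 34.3, higher in 8 of 8, and Nat8f2 at 6.76 against 4.75, higher in 7 of 8. Nat8f3 was at 85.7 ± 63.5 against 97.2 ± 69.1 and was higher in the Slc7a13-rich part in 2 of 8 libraries, both of them Ctrl at ZT16. The Slc7a13-rich share of PCT nuclei was 37.04% to 46.6% over the libraries. The parts are made of clusters of the same nuclei, so no test is given. The split depends on the clustering. With 50 principal components, a cluster with 1284 of 1299 nuclei from Ctrl ZT16 replicate 1 fell in the Slc5a12-rich part (Slc5a12 601 CPM, Slc7a13 489). So did another with 1210 of 1223 nuclei from cKOt ZT4 replicate 2 (902 and 538). Levels by part with that clustering are not given here.

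**Figure D4:**
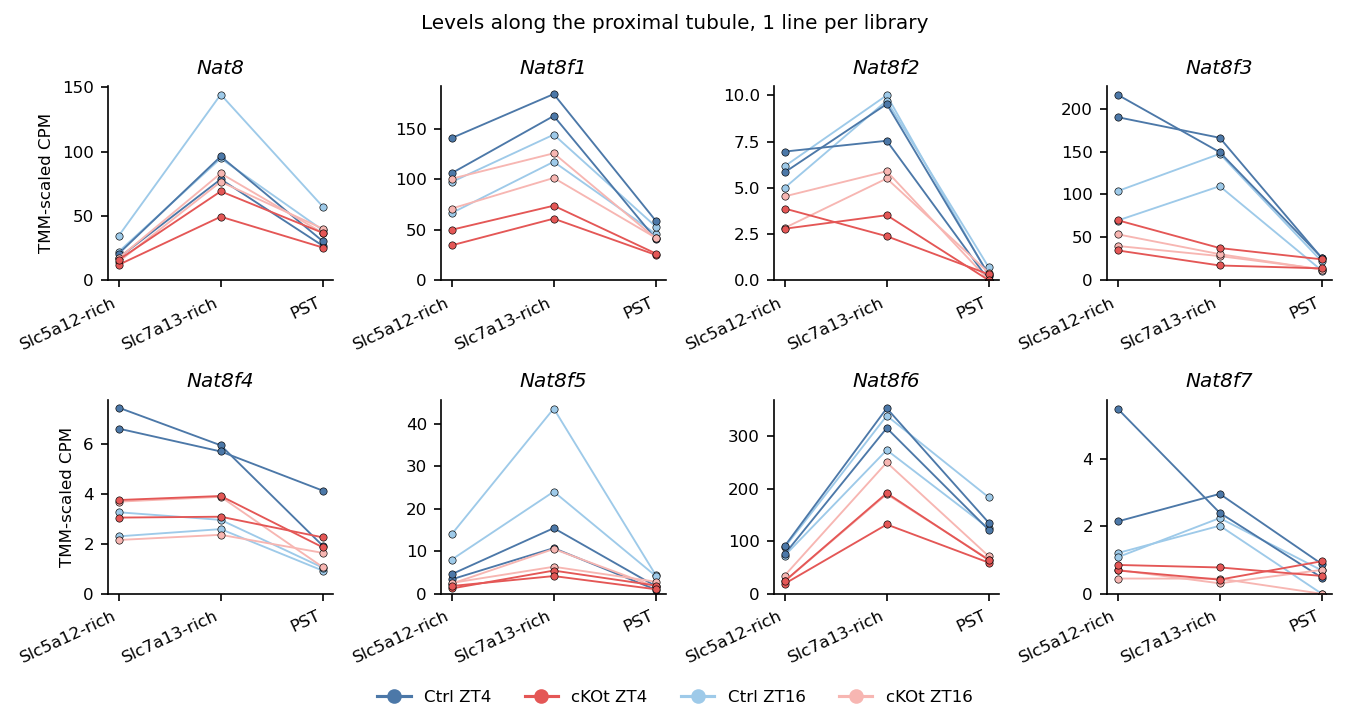
Level of each member in the Slc5a12-rich part of PCT, the Slc7a13-rich part of PCT and PST, in TMM-scaled CPM on linear axes, with 1 line per library coloured by group. Nat8, Nat8f5 and Nat8f6 peak in the Slc7a13-rich part in all 8 libraries relative to the Slc5a12-rich part, whereas Nat8f3 has no common direction between the 2 parts of PCT.

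Between genotypes, some members were called within a part and others not. In the Slc5a12-rich part at ZT4, Nat8f3 was at 216 and 190 CPM in Ctrl and 34.8 and 69.9 in cKOt (−1.95 ± 0.31, called), and at ZT16 at 69.6 and 104 in Ctrl and 39.9 and 53.6 in cKOt (−0.89 ± 0.31, not called). In the Slc7a13-rich part at ZT4 it was at 149 and 166 in Ctrl and 17.2 and 37.5 in cKOt (−2.52 ± 0.32, called), and at ZT16 at 110 and 147 in Ctrl and 28.2 and 30.4 in cKOt (−2.13 ± 0.32, called). Nat8f6 in the Slc5a12-rich part was at 75.6 and 90.8 in Ctrl and 19.1 and 24.1 in cKOt at ZT4 (−1.94 ± 0.22, called), and at 88.5 and 72.6 in Ctrl and 34.7 and 23.7 in cKOt at ZT16 (−1.46 ± 0.22, called). In the Slc7a13-rich part Nat8f6 was at 316 and 353 in Ctrl and 132 and 192 in cKOt at ZT4 (−1.05 ± 0.23, not called), and at 339 and 274 in Ctrl and 250.1 and 190 in cKOt at ZT16 (−0.48 ± 0.23, not called). For Nat8f3 and Nat8f6 the genotypes did not overlap in either part at either time. Nat8f1 was called at ZT4 in both parts, with −1.54 ± 0.26 in the Slc5a12-rich and −1.36 ± 0.19 in the Slc7a13-rich part, and overlapped between genotypes at ZT16 in both. In these contrasts 0.889% and 0.233% of mRNAs were called in the Slc5a12-rich part at ZT4 and ZT16, and 0.678% and 0.503% in the Slc7a13-rich part.

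In PST, Nat8f6 was lower in cKOt at both times. It was at 122 and 135 CPM in Ctrl and 59.3 and 64.2 in cKOt at ZT4 (−1.06 ± 0.21, not called), and at 184 and 125 in Ctrl and 71.5 and 65.3 in cKOt at ZT16 (−1.17 ± 0.21, called). Every Ctrl library was above every cKOt library. Nat8f1 was at 58.9 and 40.9 in Ctrl and 25.1 and 26.5 in cKOt at ZT4 (−0.94 ± 0.22, not called). Nat8 overlapped between genotypes at ZT4, at 26.8 and 30.3 in Ctrl and 25.5 and 36.9 in cKOt (0.12 ± 0.26). In PST 0 of 5 members tested were called at ZT4, against 0.447% of mRNAs, with 2 at an unadjusted p under 0.05. DESeq2 called 1, Nat8f6, and 109 mRNAs in all. At ZT16 1 of 5 was called, against 0.491%, and the call was lost without any Ctrl ZT4 or cKOt ZT16 library or Ctrl ZT16 replicate 1. Between times edgeR and DESeq2 called 0 members in PST in Ctrl (0.0496% of mRNAs by edgeR) and in cKOt (0%), with 2 and 1 at an unadjusted p under 0.05. DESeq2 called 28 and 4 mRNAs in all. 

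Nat8f3 had a second class of expression in the stroma. Of its 1049 UMIs in Mes/Per, 1013 came from the largest cluster of that class, which held 5871 nuclei and was led by Ak5, Kcnd3, Gabra3, Fbln5 and Col14a1. In this cluster 6 markers of the class were raised, but 0 of them were among its 10 leading genes. The class name therefore does not settle whether these nuclei are mesangial cells or pericytes. The level was 61.2 ± 30.7 CPM there and 6.52 ± 4.21 and 4.65 ± 6.15 in the other 2 Mes/Per clusters (mean ± SD, n = 8). In that cluster a median of 11.4% of nuclei per library had a Nat8f3 UMI, and 5.00% after thinning to 1000 UMIs, against 0.943% of Vasc nuclei and 0.419% after thinning. Of the 713 nuclei with a Nat8f3 UMI, 213 had at least 2. Pooled over libraries as CPM of all UMIs, without TMM factors and so on a scale other than the levels above, they had Slc34a1 at 308 and Slc5a12 at 139, where the 5158 nuclei of the cluster without a Nat8f3 UMI had 346 and 165. On the same pooled scale Nat8 and Nat8f1 together were at 47.6 in the nuclei with Nat8f3 and 42.4 in those without. Of the cluster's nuclei 6.01% were scored as doublets. The part of carried-over RNA or doublets in these counts was not tested.

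By library, the stromal cluster had Nat8f3 at 48.1 and 42.1 CPM in Ctrl and 7.85 and 44.7 in cKOt at ZT4, and at 94.0 and 77.4 in Ctrl and 98.1 and 77.0 in cKOt at ZT16. All 4 libraries at ZT16 were above all 4 at ZT4. The other members with at least 5 UMIs in each library of this cluster had smaller values with time, none called, with 0.51 ± 0.26 in Ctrl and 0.16 ± 0.33 in cKOt for Nat8, 0.31 ± 0.24 and 1.03 ± 0.31 for Nat8f1, and 0.37 ± 0.34 and 0.52 ± 0.40 for Nat8f6. Nat8f5, with fewer UMIs, rose by a larger factor than Nat8f3 in Ctrl, not called. It was at 1.38 and 2.59 CPM at ZT4 and 4.86 and 7.09 at ZT16, from 2 to 13 UMIs per library. All 6 members tested in Ctrl and all 5 in cKOt were higher at ZT16 in this cluster. For Nat8f3 the log2 fold change of ZT16 against ZT4 was 0.94 ± 0.36 in Ctrl and 1.78 ± 0.42 in cKOt, neither called, where 0.195% and 0.115% of mRNAs were called. Between genotypes it was −0.81 ± 0.44 at ZT4 and 0.03 ± 0.34 at ZT16, neither called, where 0.0419% and 0.0241% were called. Over the whole Mes/Per class it was 0.78 ± 0.33 in Ctrl, not called, and 2.20 ± 0.37 in cKOt, called, where 0.139% and 0.487% of mRNAs were called. The latter was 1.56 without cKOt ZT4 replicate 1, which had 10 UMIs in the cluster, and 3.53 without replicate 2, which had 50, and its call was lost without any ZT16 library. Between genotypes the class value was −1.24 ± 0.39 at ZT4, not called (0.071% of mRNAs called), with 36.3 and 34.8 CPM in Ctrl and 5.94 and 23.3 in cKOt. At ZT16 it was 0.18 ± 0.31, not called (0.0231% called), with 64.9 and 56.5 in Ctrl and 79.4 and 58.7 in cKOt. In PCT the same gene was lower at ZT16 in Ctrl (−0.70 ± 0.32), and the difference between the 2 classes was not tested.

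In Mes/Per, Nat8f1 and Nat8 had lower mean levels in cKOt at ZT4 and at ZT16. Nat8f1 was at 33.9 and 31.6 CPM in Ctrl and 11.9 and 15.1 in cKOt at ZT4 (−1.27 ± 0.22), beside −1.46 ± 0.21 in PCT, and at 41.6 and 36.0 in Ctrl and 24.1 and 26.6 in cKOt at ZT16 (−0.62 ± 0.19). Nat8 was at 12.6 and 18.4 in Ctrl and 11.4 and 10.3 in cKOt at ZT4. At ZT16 it was at 28.3 and 26.1 in Ctrl and 15.1 and 12.9 in cKOt (−0.95 ± 0.24), beside −0.73 ± 0.22 in PCT. None of these was called, and the genotypes did not overlap in any of them. With time, Nat8 had 0.78 ± 0.24 in Ctrl and 0.37 ± 0.28 in cKOt, and Nat8f1 had 0.25 ± 0.19 and 0.90 ± 0.23, none called. All 6 members tested in Mes/Per in Ctrl and all 5 in cKOt, Nat8f3 among them, had positive log2 fold changes with time. In these stromal nuclei Nat8 and Nat8f1 had log2 fold changes between genotypes of the same sign as in PCT. With time in Ctrl, Nat8 was positive in both classes, whereas Nat8f1 was at 0.25 here and at −0.46 in PCT. With time in cKOt both genes were positive in both classes. The part of free RNA in these counts was not tested.

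**Figure D5:**
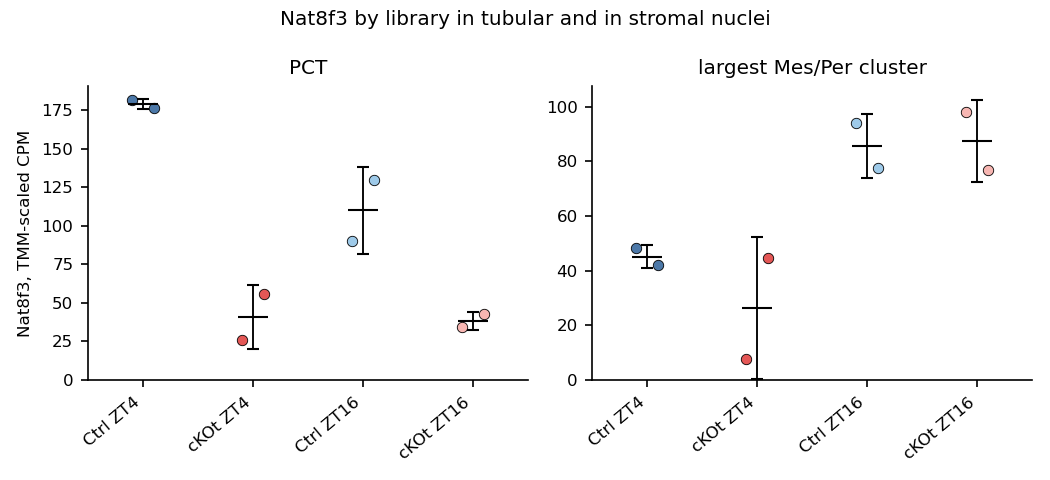
Nat8f3 by group in PCT (left) and in the largest Mes/Per cluster (right), in TMM-scaled CPM on linear axes from 0. Points are libraries, marks and bars are the mean and SD of 2 libraries. PCT separates by genotype (Ctrl at 89.9 or more, cKOt at 55.6 or less), and the stromal cluster by time (ZT16 at 77.0 or more, ZT4 at 48.1 or less).

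Genes of the same pathway were read from a list of 36 genes of glutathione and mercapturate metabolism, of which 35 were tested in PCT. At ZT4 1 of them (Gsta3) was called between genotypes by edgeR, against 0.833% of all mRNAs called. At an unadjusted p under 0.05 there were 7, a limit at which the share of all mRNAs was not counted. DESeq2 called 2, Gsta3 and Gstt2, and 311 mRNAs in all. Gsta3, a glutathione S-transferase that forms the conjugates at the start of the pathway, was at 14.2 CPM in cKOt and 44.0 in Ctrl (−1.63 ± 0.29, edgeR adjusted p = 0.0483), and the call was lost when any library but cKOt ZT4 replicate 2 was left out. At ZT16 it was lower by a like amount (−1.65 ± 0.29) but not called (edgeR adjusted p = 0.0729). In PST Gsta3 was lower in cKOt at both times, with log2 fold changes of −2.19 ± 0.37 (edgeR adjusted p = 0.0401) and −2.28 ± 0.34 (edgeR adjusted p = 0.016). The median of the list in PCT was −0.20 at ZT4 and −0.18 at ZT16, against 0.006 and 0.013 over all mRNAs. At ZT16 none of the list was called by edgeR, against 0.308% of all mRNAs, and 8 were at an unadjusted p under 0.05. DESeq2 called 4, namely Acy1, Gsta3, Kyat1 and Oplah, and 200 mRNAs in all.

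With time in Ctrl, Slc7a9, the light subunit of the cystine transporter of the brush border, was the gene of the list that edgeR called, against 0.472% of all mRNAs. At an unadjusted p under 0.05 there were 5. DESeq2 called 3, namely Anpep, Gstt2 and Slc7a9, and 244 mRNAs in all. Slc7a9 fell from 237 CPM at ZT4 to 114 at ZT16 (−1.05 ± 0.17, edgeR adjusted p = 0.0449), a call that held only without either cKOt ZT4 library. In cKOt the list had 0 called between times by edgeR and by DESeq2, with 5 at an unadjusted p under 0.05. Of 14 acetyl- and acyltransferases outside the cluster, 11 or 12 were tested and none was called by edgeR in any of the 4 contrasts. At an unadjusted p under 0.05 there were 3 at ZT4 and 2 at ZT16 between genotypes, 0 in Ctrl and 1 in cKOt between times. DESeq2 called 1, Sat1, in cKOt between times, where it called 107 mRNAs in all.

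The neighbours of the cluster were 22 protein-coding genes, 10 on each side of it and 2 that overlap its ends, of which 17 were tested in PCT. None was called by edgeR or by DESeq2 in any of the 4 contrasts. At an unadjusted p under 0.05 there were 0 in both genotype contrasts, 2 between times in Ctrl and 1 in cKOt, and the median log2 fold change was 0.08 at ZT4 and 0.06 at ZT16 between genotypes. Of the 2 at the ends, Alms1 was at 0.03 ± 0.15 and Tprkb, which overlaps Nat8f1 on the other strand, at −0.42 ± 0.25 at ZT4 (cKOt against Ctrl, both chosen for their place after their values were seen). At ZT16 they were at 0.27 ± 0.16 and 0.52 ± 0.25.

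Over the 8 libraries in PCT, the genes whose log2(CPM + 1) followed the summed log2(CPM + 1) of the 8 members most closely, among 6671 mRNAs with a mean of at least 20 CPM, were Slc25a48 (Pearson r = 0.98), Cfb (0.967), Parp10 (0.962), Ankrd65 (0.96), Ces1d (0.951), Gsta3 (0.951), Anks1b (0.942), Stpg2 (0.94), Dlg2 (0.938) and 4931406C07Rik (0.937). The 8 points share library, group and depth, and the values are a description. Among the members, Nat8f3 and Nat8f7 had r = 0.952 and Nat8 and Nat8f5 had 0.951, while Nat8f4 and Nat8f5 had −0.192. Over 19 classes in Ctrl, among 8608 mRNAs with at least 50 CPM in 1 class, Nat8 was most like Akr7a5 (0.976), Cltrn (0.976) and Khk (0.968), and Nat8f6 like Sypl2 (0.978), Ak4 (0.975) and Acsm1 (0.974). Among the genes most like Nat8f3 were Errfi1 (0.941) and Nrxn2 (0.891), and Nat8f7 was most like Errfi1 (0.859), Nrxn2 (0.753) and Synpr (0.731). For Nat8f1 these genes were Spp2 (0.886), Bnc2 (0.875) and 4931406C07Rik (0.869), and for Nat8f5 Gpx3 (0.868), Slc22a6 (0.852) and Igfbp4 (0.851). For the low genes the likeness was weaker, with Cyp2d12 (0.788), Cyp24a1 (0.777) and Fam151a (0.769) for Nat8f2 and Pard6b (0.747), Arhgef16 (0.744) and Ksr2 (0.74) for Nat8f4.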

How the data were processed

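Single-nucleus libraries (10x 3′ v3.1) of 8 mouse kidneys were analysed from the deposited matrices, in which the authors deposited whole UMI counts per gene and nucleus as made with Cell Ranger 7.1.0 after bcl2fastq 2.20 (submitters' notes also name Seurat 5). As the reference, mm10 stands in the methods and GRCm39 in the notes, so no coordinates of the counting reference are printed. Barcodes below 500 genes or 800 UMIs, or above 2% of mitochondrial reads, were dropped. The remaining nuclei were clustered with Seurat 5.3.0 (2000 variable mRNAs without the members, 1000 principal components, 20 neighbours, resolution 2.2), and clusters were named from fixed markers, which can differ from the study's names. PCT and PST were named over their joint markers and then divided by segment genes, a rule set after the clusters were seen. Scrublet scored 4367 doublets at an expected rate of 8%, and these were kept.

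Counts were summed per library and class and tested with edgeR 4.0.16 (quasi-likelihood, TMM, 1 model of 4 groups, no replicate block) under R 4.3.3, with DESeq2 1.42.0 as an alternative. A gene was tested where both replicates of either group compared had 5 counts or more, Benjamini-Hochberg adjustment ran over all mRNAs tested, and a call is an adjusted p under 0.05. The share of all mRNAs at an unadjusted p under 0.05 was not counted, so counts at that limit have no background. Percentages of all mRNAs called are those of edgeR. Each library was 1 mouse, and replicates differed by more than counting noise (chi-square per degree of freedom 19.6 to 50.7 in PCT). What the replicate numbers stand for is not stated, and same-numbered libraries were not paired in the main tests. In PCT their deviations from the group mean correlated between genotypes at 0.579 at ZT4 and 0.371 at ZT16. In counts simulated for cKOt against Ctrl at ZT4 in PCT (13903 genes), 36.73% of 2-fold and 87.76% of 4-fold changes were recovered, and 7.576% of calls were on unchanged genes.

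The members and all lists were chosen with earlier results of these data known. Named genes were all members, list genes called in at least 1 of 4 contrasts in PCT, the 10 genes most alike over libraries and 3 per member over classes (1 of them is not reported here), and class markers. Promoters came from RefSeq (GRCm38.p6), which matched all 8 members. Alternatives were another normalization and tool, no filter, 50 principal components, doublets removed, no barcode filter, a replicate block and leaving out each library.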

Additional observations from a re-analysis of the deposited data

How the results depend on the processing

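Direction was steadier than the calls: of the alternatives computed for single log2 fold changes 459 kept direction and side of the threshold, 49 lost a call, 10 gained one and 10 changed sign. Most of these values were not called in the main tests, and only those that were had a call to lose. The 459 are thus no measure of how steady the calls were. With 2 mice per group, few calls outlasted leaving out a library. In PCT at ZT4 the 5 calls became 6 with DESeq2 (Nat8f5 added), 2 (Nat8f1, Nat8f3) with the replicate block, and 3 in the Slc5a12-rich and 2 in the Slc7a13-rich part alone. Over all mRNAs the calls went from 117 to 311, 99, 116 and 89 in the same order. Member calls were lost without any 1 library, all of them without either Ctrl ZT4 library. The 1 call at ZT16 became 2 without the filter or with DESeq2 and 0 with the block or with doublets removed. It was also lost without any 1 library other than those of cKOt at ZT4. Over all mRNAs the calls at ZT16 went from 43 to 143 without the filter, 200 with DESeq2, 41 with the block and 46 with doublets removed. The 0 calls with time in Ctrl became 1 without the filter or with DESeq2, those with time in cKOt 1 with DESeq2, and those for the interaction 1 with DESeq2. Over all mRNAs the calls with time in Ctrl went from 66 to 200 without the filter and 244 with DESeq2. With DESeq2 they went from 1 to 107 with time in cKOt and from 5 to 39 for the interaction. Over all nuclei, the 2 calls at ZT4 became 5 with DESeq2 and 1 with the block, where the calls over all mRNAs went from 72 to 349 and 53. Member calls were also lost without some libraries, all of them without Ctrl ZT4 replicate 1. The 1 call over all nuclei at ZT16 became 2 with DESeq2 and was lost with the block, with doublets removed, with no barcode filter and without any 1 library. Over all mRNAs these calls went from 28 to 171 with DESeq2, 30 with the block, 26 with doublets removed and 27 with no barcode filter. The 0 calls of both time contrasts and the interaction became 1 with DESeq2, which called 233 mRNAs in Ctrl, 164 in cKOt and 48 for the interaction. In PST, the 0 calls at ZT4 became 2 without the filter and 1 with DESeq2 or 50 principal components. Over all mRNAs these calls went from 54 to 346, 109 and 70 in that order. The 1 call in PST at ZT16 became 0 with the block or doublets removed, where the calls over all mRNAs went from 60 to 59 and 70. It was also lost without either Ctrl ZT4 library, Ctrl ZT16 replicate 1 or either cKOt ZT16 library. Of the pathway list, the call at ZT4 became 2 with DESeq2, 0 with the block and 0 to 1 without 1 library (1 without either cKOt ZT4 library, which was Gsta3 without replicate 2 and Ggct, named after its value was seen, without replicate 1), the 0 at ZT16 became 4 without the filter or with DESeq2 and 0 to 2 without 1 library (2 without either cKOt ZT4 library), and the call with time in Ctrl became 3 without the filter or with DESeq2, 0 with the block and 0 to 2 without 1 library. The other acyltransferases went from 0 to 1 with time in cKOt without the filter or with DESeq2, and the neighbouring genes kept 0 calls under all 60 alternatives. The cause of these changes was not tested.

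Signs changed for 6 values that were within their SE of 0, each when 1 library was left out. Between genotypes at ZT16, Nat8f4 ranged from −0.28 (without cKOt ZT16 replicate 2) to 0.47, and was −0.03 without Ctrl ZT16 replicate 1. Nat8f1 ranged from −0.34 to 0.11 (without Ctrl ZT16 replicate 2), and was 0.05 without cKOt ZT16 replicate 1. Nat8f3 in Mes/Per ranged from −0.057 (without cKOt ZT16 replicate 1) to 0.38. With time, Nat8f6 in Ctrl ranged from −0.19 to 0.083 (without Ctrl ZT4 replicate 2), and was 0.01 without Ctrl ZT16 replicate 2. In cKOt, Nat8f3 ranged from −0.53 to 0.57 (without cKOt ZT4 replicate 2), and was 0.06 without cKOt ZT16 replicate 1, and Nat8f4 ranged from −0.62 to 0.13 (without cKOt ZT16 replicate 1). The Mes/Per call of Nat8f3 with time in cKOt (alternatives added after seeing the data) was lost in its largest cluster alone (1.78), with the replicate block (2.21) and without any of the 4 ZT16 libraries. What the replicate numbers stand for is not stated. Same-numbered libraries deviated together between genotypes at each time, but not between times in Ctrl. In PCT the deviations correlated at 0.579 between genotypes at ZT4, 0.371 at ZT16, −0.311 between times in Ctrl and 0.314 in cKOt. The replicate block has 1 term for both times, so a pairing within each time was not modelled. Fewer than all simulated 2-fold changes were recovered at this depth and number of mice, so a member without a call is not shown to be unchanged.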
